A study of Homo sapiens with 12 samples.

Results

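THP1 monocytes that had shared their medium with endothelial cells (ECs), whatever the state of those ECs, were compared with THP1 monocytes cultured alone. The comparison used 12 of the 12 described RNA-sequencing libraries, 9 from co-cultures and 3 from mono-culture, chosen by the culture that the sample labels give. The co-cultures comprised 3 libraries with control ECs (replicates 1, 2 and 3), 3 with senescent ECs (senECs; replicates 1, 2 and 5) and 3 with EGCG-treated senECs (replicates 1, 2 and 5), and mono-culture had replicates 1, 2 and 3. THP1 is an established human monocytic leukemia line, and the ECs were human umbilical vein endothelial cells, made senescent with etoposide, a drug that damages DNA. EGCG is the main catechin of green tea and was given to the senECs only. The ECs lay in the lower well and the THP1 cells in an insert above them, so that a filter with pores of 1 µm kept the cells apart while the secretome, vesicles included, could pass. After 24 h in the same endothelial medium, with or without ECs below, the THP1 cells were taken out of the inserts and received lipopolysaccharide (LPS) at 100 ng/ml for 2 h. All 12 libraries, those of mono-culture included, thus come from LPS-stimulated cells. The model is limited to 1 leukemia line and to senescence induced by a drug.

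Monocytes in blood vessels are exposed to cytokines, growth factors, lipids and vesicles released by the endothelium. One well-known route from such signals to monocyte transcription is the IL-6 and IL-10 family of cytokines, whose receptors use JAK kinases to activate STAT3, which induces SOCS3, BCL3, PIM1, CEBPB and its own gene. LPS acts through TLR4 and its co-receptor CD14 on NF-κB and induces IL1B, IL6, CXCL8, IL12B and IL23A, the genes that the study also followed by qPCR. By qPCR, the paper reports all of these genes as lower with control ECs than in mono-culture. It reports IL1B and IL6 as higher with senECs than with control ECs. With EGCG-treated senECs, it reports IL1B, IL6 and CXCL8 as lower than with untreated senECs and in mono-culture. From its RNA sequencing, the paper reports that most genes linked to inflammation were higher with senECs than in the other cultures. By gene set enrichment, it reports inflammatory sets as enriched with senECs against control ECs and depleted after EGCG treatment. Enrichment ranks all genes and was not run here.

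The libraries held between 15439836 and 18159194 counts in mono-culture and between 15997927 and 22092600 counts in co-culture. A gene without any count could be present at up to 0.132 to 0.191 counts per 1e6 counts (CPM), depending on the library, which accounts for counting error and nothing else. The cell identity was checked with marker genes. The pan-leukocyte gene PTPRC lay between 292 and 336 CPM in mono-culture and between 285 and 396 CPM in co-culture, and the myeloid factor SPI1 between 226 and 263 CPM and between 265 and 385 CPM. Of 15 monocytic markers 14 had a mean of at least 1 CPM, CD68 being the exception. How reads of overlapping genes were counted is not known, so this does not show that the cells lack CD68. Of 24 endothelial markers, 6 had a total under 10 counts over the 12 libraries, the EC cadherin gene CDH5 among them, and only 6 reached a mean of 1 CPM. The summed level of these markers ranged from 165.6 to 191.0 CPM in mono-culture and from 165.0 to 253.3 CPM in co-culture, most of it PECAM1, which monocytes express as well. Among the 18 endothelial markers tested, 0 were called, and VWF lay between 0.808 and 2.20 CPM in mono-culture and between 0.405 and 1.98 CPM in co-culture. Among lymphocyte markers, CD3D, CD3E, CD3G, CD2 and MS4A1 had under 10 counts in all, CD79A, CD8A and NCAM1 stayed below 2 CPM in every library, and NKG7 is described with the higher genes. These are bulk libraries, in which a change in the number of cells of a type and a change in RNA per cell cannot be told apart.

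A small share of the genes tested was called between co-culture and mono-culture, which does not measure how many genes changed. Of 25873 genes that summed to 10 counts or more over the 12 libraries, edgeR's quasi-likelihood test with Benjamini-Hochberg adjustment called 204 (0.788%) at an adjusted p under 0.05. Transcripts of 97 genes were higher in co-culture (0.375%) and those of 107 genes lower (0.414%). The higher genes include POU2F2, CLU, MUC1, NNMT, STAT3, BCL3 and HSD11B1, and the lower genes include AXL, SPP1, CD1D, PDK4, DNASE2 and P2RY12. Most changes were moderate. The median log2 fold change was 0.64 for the higher genes and -0.68 for the lower genes, against 0.01 over all genes tested, and 21 of the higher and 26 of the lower genes changed at least 2-fold. The 9 co-culture libraries lay above all 3 mono-culture libraries for 459 of all genes tested (1.77%) and below them for 424 (1.64%). For 95 of the 97 higher and 98 of the 107 lower genes the libraries of the 2 kinds of culture did not overlap. Protein-coding genes made up 94 of the higher and 92 of the lower genes, and pseudogenes 0 and 7. Genes with a mean of at least 1 CPM numbered 14397 and included 95 of the higher and 106 of the lower genes. The shares called over all genes, given beside the lists below, are thus lower than those among expressed genes. The counts rest on only 3 mono-culture libraries. Without mono-culture replicate 2, 21 higher and 16 lower genes were called, without replicate 1 there were 40 and 52, and without replicate 3 there were 31 and 34. All 204 genes kept their sign when the fit was repeated 12 times, without 1 library each time. For the genes without overlap this was fixed in advance. Of the higher genes 19 and of the lower genes 8 were called in all 12 of these fits. Named genes that lost the call in such a fit lost it without a mono-culture library. This was replicate 2 alone for SELPLG, LIPG, SPP1, PACSIN1, TRIM31 and ST6GALNAC5, and replicate 3 alone for CEACAM4. It was replicate 1 or 2 for NKG7, PDK4, RASGRP3, KIT, PIM1 and ID1, replicate 1 or 3 for MGAM2 and FKBP4, and replicate 2 or 3 for NNMT, NRG1, AC025678.3, GALR2, P2RY12, PLEKHA6, SERPINB13, GPNMB and SLC2A1. It was any of the 3 for LRRC2, FCMR, SYT2, AHNAK2, CEBPB and FCGR1A, and any of the 3 or at least 1 co-culture library for CYP26B1, TJP3, NPIPA7, ANXA3, PCDH17, CD72, THBS1, VCX, TMEM176B and HK1. DESeq2 called 289 higher and 213 lower genes, a share of 57.6% higher against 47.5% with edgeR. Fits with a term for the replicate number called more genes than the reported model. At an unadjusted p under 0.05 (edgeR) there were 2691 of the 25873 genes.

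**Figure D1:**
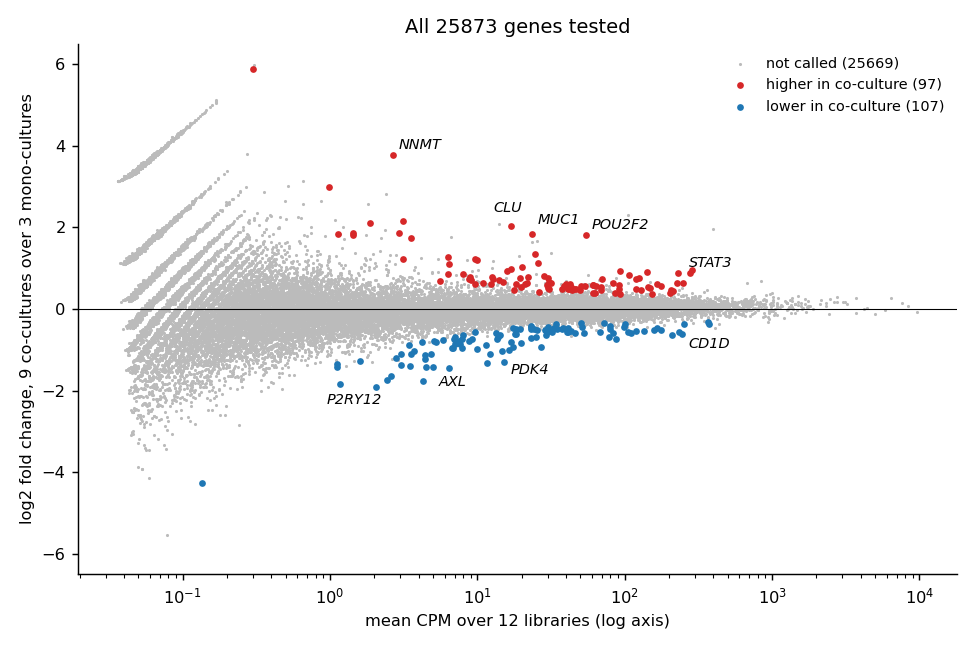
Log2 fold change of the 9 co-culture libraries over the 3 mono-culture libraries (vertical axis) against the mean CPM over the 12 libraries (horizontal log axis) for each of the 25873 genes tested. Red points are the 97 genes called higher, blue points the 107 called lower (edgeR, adjusted p under 0.05), and most called genes have a mean above 1 CPM.

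The smallest p of the comparison belonged to POU2F2, the gene of the octamer-binding factor OCT2, which is best known from B cells (GRCh38, chr19:42086110-42196585, minus strand). POU2F2 measured 19.2, 17.4 and 20.2 CPM in mono-culture and between 53.8 and 74.4 CPM in co-culture, with a median of 67.1. Every co-culture library thus held more than 2-fold the highest mono-culture value. The fitted rise was 3.51-fold (log2 fold change 1.81 ± 0.10 SE, edgeR adjusted p = 1.97e-09), and POU2F2 was called in all 12 fits that left out 1 library. Of the other octamer factors tested, POU2F1, the ubiquitous relative, lay between 73.4 and 92.3 CPM in mono-culture and between 52.8 and 94.4 CPM in co-culture, and POU3F1 was near 0. The co-activator gene POU2AF1 had too few counts to be tested. POU2F2 was the 1 called gene of 4 tested in the list of octamer factors, whose median log2 fold change was -0.04.

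The sequence before the start of POU2F2 is shown because this gene had the smallest p, and those of FCGR1A and THBS1 because, of the higher genes described here, they had a match to the STAT element within 250 bases before to 50 bases after the RefSeq start (GRCh38.p14). The 250 bases before each start are printed 5′ to 3′, and capitals mark the matches. The RefSeq start of POU2F2 lies within the gene as GENCODE 29 gives it.
POU2F2, chr19:42132447-42132696, minus strand: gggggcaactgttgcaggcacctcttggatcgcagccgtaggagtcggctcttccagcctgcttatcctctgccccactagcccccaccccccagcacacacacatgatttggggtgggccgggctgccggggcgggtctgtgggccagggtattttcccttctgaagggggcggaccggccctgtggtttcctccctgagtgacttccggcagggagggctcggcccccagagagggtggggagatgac
FCGR1A, chr1:149782444-149782693, plus strand: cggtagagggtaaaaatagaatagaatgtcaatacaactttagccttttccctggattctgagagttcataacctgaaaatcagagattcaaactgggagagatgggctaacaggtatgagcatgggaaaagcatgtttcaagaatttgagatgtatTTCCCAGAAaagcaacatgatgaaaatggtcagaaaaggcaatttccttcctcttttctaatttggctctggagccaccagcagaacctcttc
THBS1, chr15:39580829-39581078, plus strand: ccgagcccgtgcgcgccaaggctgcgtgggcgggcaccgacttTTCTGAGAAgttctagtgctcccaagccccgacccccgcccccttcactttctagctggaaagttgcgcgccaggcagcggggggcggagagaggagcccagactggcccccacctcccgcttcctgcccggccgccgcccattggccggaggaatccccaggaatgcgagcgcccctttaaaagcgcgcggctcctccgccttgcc
The element searched was TTCNNNGAA, where N is any base. It reads the same on both strands and starts at position -93 of FCGR1A and -207 of THBS1. It occurred in 6 of the 78 higher genes with a RefSeq promoter (7.69%), in 2 of the 79 lower genes (2.53%) in 7.88% of all 27305 promoters and in 6.77% of the 13463 promoters of genes tested. The octamer ATGCAAAT, on either strand, occurred in 1 of the 78 higher and 3 of the 79 lower genes, against 1.8% of all promoters and 1.54% of those of genes tested. A further element, TCACGTGA, which many lysosomal genes carry, occurred in 0 of 78 and 2 of 79, against 1.04% and 1.65%. None of the 3 motifs contains another, and a match describes the sequence only.

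Genes of the STAT3 pathway were next examined. Their list, like the others, was written with earlier results of these data known, so its counts are a description and no test. Of 32 members tested, 6 were called higher and 0 lower, against 0.375% and 0.414% of all genes, and the median log2 fold change of the list was 0.34 against 0.01 over all genes. STAT3 itself, the shared transcription factor, measured 182, 170 and 175 CPM in mono-culture and from 242 to 298 CPM in co-culture, with a median of 279. All 9 co-culture libraries lay above mono-culture, and STAT3 rose 1.56-fold (log2 fold change 0.64 ± 0.08 SE, edgeR adjusted p = 0.00019). BCL3, an atypical IκB protein that acts in the nucleus, measured 58.2, 64.1 and 79.0 CPM in mono-culture and from 98.9 to 155 CPM in co-culture, a 1.78-fold rise (edgeR adjusted p = 0.00145). CEBPB, a transcription factor of acute-phase and myeloid genes, rose 1.48-fold from 44.2, 49.4 and 47.1 CPM to between 61.0 and 88.3 CPM. PIM1, a serine/threonine kinase, rose 1.56-fold from 18.5, 23.9 and 24.0 CPM to between 26.7 and 40.0 CPM. BATF, a partner of JUN proteins, lay between 14.6 and 15.7 CPM and between 17.8 and 31.2 CPM, and it was called in 4 of the 12 fits that left out 1 library. FCGR1A, the high-affinity IgG receptor CD64, measured 26.1, 29.2 and 30.2 CPM in mono-culture and from 35.6 to 51.6 CPM in co-culture (edgeR adjusted p = 0.0254). Since FCGR1A has near-identical copies in the genome, its level is uncertain.

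The targets and inhibitors of STAT3 carried most of these calls, 5 of 15 tested, with a median log2 fold change of 0.55 and a positive value for 14 of 15. SOCS3, the feedback inhibitor of the pathway, lay between 21.4 and 50.8 CPM in mono-culture and had a median of 62.7 and a lowest value of 38.2 CPM in co-culture, which overlapped, and was not called. No ligand (0 of 8) and no receptor (0 of 5) of the IL-6 family was called. The transcript of IL6R, the IL-6 receptor, was abundant at 512 to 600 CPM in mono-culture and 436 to 556 CPM in co-culture, while IL6 stayed below 0.8 CPM in every library. The signal transducer IL6ST lay between 55.8 and 71.1 CPM and between 57.8 and 77.3 CPM. JAK2, a kinase upstream of STAT3, had its 9 co-culture values (40.1 to 52.8 CPM) below the 3 mono-culture values (56.0 to 62.8 CPM) but was not called. JAK3, a kinase of the receptors with the common gamma chain and no member of the list, was called higher (log2 fold change 2.99 ± 0.68 SE, edgeR adjusted p = 0.0386) at low levels, with 0.249, 0.108 and 0.110 CPM in mono-culture and from 0.413 to 3.48 CPM in co-culture. It was called in 7 of the 12 fits without a library and was picked out after its values had been seen.

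CLU, which encodes clusterin, an extracellular chaperone and inhibitor of the terminal complement complex, measured 4.35, 5.76 and 5.23 CPM in mono-culture and from 13.7 to 28.9 CPM in co-culture, with a median of 20.5. No library overlapped, and CLU rose 4.08-fold (log2 fold change 2.03 ± 0.22 SE, edgeR adjusted p = 4.01e-05). Of the 28 complement genes tested, CLU was the 1 called, against 0.788% of all genes. The C1q genes C1QA, C1QB and C1QC had positive log2 fold changes of 1.21, 1.95 and 1.32 at levels below 7 CPM and were not called. MUC1, a transmembrane mucin, measured 10.5, 5.81 and 7.82 CPM in mono-culture and from 22.8 to 40.1 CPM in co-culture, a 3.56-fold rise (edgeR adjusted p = 2.17e-05). NRG1, the ErbB ligand neuregulin-1, rose 4.29-fold from 0.746, 0.431 and 0.441 CPM to between 1.56 and 3.44 CPM. Its counts in mono-culture were only 12, 8 and 8, and it was the 1 called gene of 12 ErbB ligands and receptors tested. AQP3, a water and glycerol channel, rose 3.32-fold from 1.43, 1.18 and 1.27 CPM to between 2.59 and 5.99 CPM.

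SELPLG, the gene of the P-selectin ligand PSGL-1 with which leukocytes roll on activated endothelium, measured 11.8, 9.69 and 12.7 CPM in mono-culture and from 16.6 to 32.0 CPM in co-culture (2.03-fold, edgeR adjusted p = 0.00592). GCNT1 and ST3GAL4, whose enzymes are known to build selectin-binding glycans, were also called, and were picked out after their values had been seen. GCNT1, the core 2 branching enzyme, rose 1.53-fold from 26.9, 32.2 and 32.1 CPM to between 42.4 and 49.9 CPM, and the sialyltransferase gene ST3GAL4 rose 1.41-fold from 23.8, 22.3 and 24.4 CPM to between 29.9 and 37.4 CPM. THBS1, which encodes the matrix glycoprotein thrombospondin-1, measured 155, 158 and 192 CPM in mono-culture and from 201 to 439 CPM in co-culture, with a median of 300. THBS1 rose 1.85-fold (edgeR adjusted p = 0.0317), and the call was lost in 5 of the 12 fits with a library left out. NKG7, a granule membrane protein known from cytotoxic lymphocytes, rose 1.99-fold from 9.32, 8.72 and 11.0 CPM to between 14.4 and 27.1 CPM. It was the only lymphocyte marker called of 5 tested. Further genes with a rise of at least 2-fold were ANXA3, GALR2, TMEM176B and CEACAM4, with adjusted p from 0.00747 (CEACAM4) to 0.04 (TMEM176B). ANXA3, an annexin, was called in 4 and TMEM176B in 5 of the 12 fits that left out 1 library. GALR2, a receptor of the peptide galanin, went from 1.13 to 2.42 CPM in mono-culture to 2.67 to 4.38 CPM in co-culture.

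**Figure D2:**
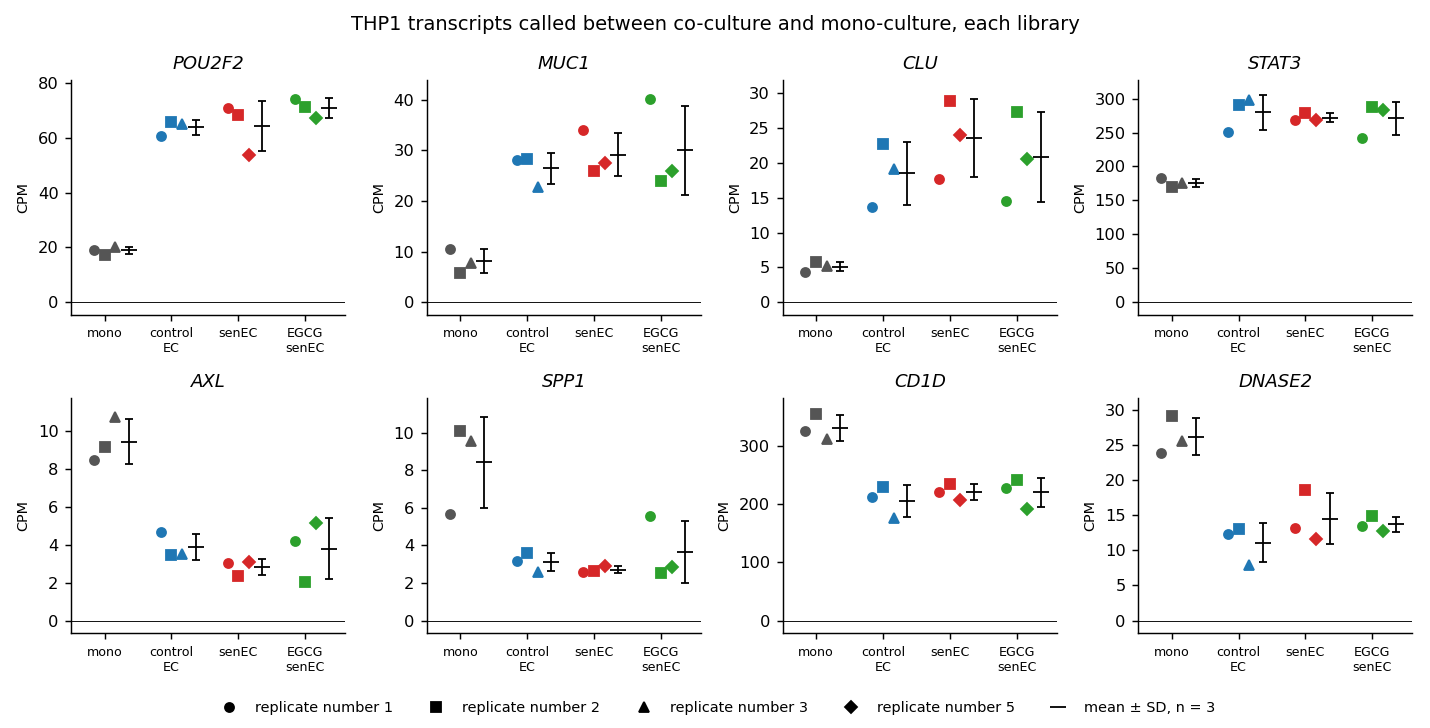
CPM (vertical axis, from 0) of 8 called genes in each of the 12 libraries, by culture; symbols give the replicate number and the black bars the mean ± SD of 3 libraries. POU2F2, MUC1, CLU and STAT3 lie higher in all 9 co-culture libraries than in the 3 mono-culture libraries, and AXL, SPP1, CD1D and DNASE2 lie lower.

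NNMT, nicotinamide N-methyltransferase, had the largest fitted change among the called genes averaging 1 CPM or more and rose 13.6-fold (log2 fold change 3.77 ± 0.63 SE, edgeR adjusted p = 0.00429). Its counts were 6, 4 and 3 in mono-culture and between 18 and 104 in co-culture, so that the size of the change is poorly determined. CYP26B1, which degrades retinoic acid, rose 4.46-fold from 0.870, 1.08 and 0.661 CPM to between 1.64 and 7.81 CPM. METTL7B, a methyltransferase, measured 13.0, 14.2 and 13.4 CPM in mono-culture and from 21.6 to 35.3 CPM in co-culture (edgeR adjusted p = 0.000135). LAP3, a cytosolic aminopeptidase, rose 1.94-fold from 160, 170 and 169 CPM to between 281 and 390 CPM (edgeR adjusted p = 2.17e-05). PARP9, a member of the ADP-ribosyltransferase family, rose 2.56-fold from 11.4, 8.61 and 14.3 CPM to between 23.1 and 35.0 CPM. PPP1R27, a regulatory subunit of protein phosphatase 1, rose 1.84-fold from 148, 145 and 131 CPM to between 219 and 327 CPM. LAP3, PARP9, PPP1R27 and METTL7B were called in all 12 fits that left out 1 library. LRRC2, GPRIN3 and the unclassified transcript AC025678.3 also belonged to the largest rises, with log2 fold changes of 1.81, 1.21 and 1.87. VCX and NPIPA7, members of families of near-identical genes whose reads cannot be assigned with certainty, had fitted values of 1.87 and 1.84 and were called in 5 and 3 of those 12 fits.

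The glucocorticoid list held 2 higher and 1 lower gene of 22 tested, against 0.375% and 0.414% of all genes. Its median log2 fold change was 0.05. HSD11B1, which regenerates active cortisol from cortisone inside cells, measured 90.8, 96.2 and 69.3 CPM in mono-culture and from 140 to 184 CPM in co-culture. All 9 co-culture libraries lay above mono-culture (1.86-fold, log2 fold change 0.90 ± 0.11 SE, edgeR adjusted p = 0.000135). FKBP4, a co-chaperone of steroid receptors, rose 1.42-fold from 30.4, 41.1 and 31.6 CPM to between 41.2 and 56.9 CPM. The receptor gene NR3C1 lay between 94.3 and 107 CPM in mono-culture and between 86.0 and 119 CPM in co-culture. Classical target genes of the receptor gave no common direction, since 10 of 18 had positive and 8 negative log2 fold changes, and the 1 called among them, PDK4, was lower. TSC22D3 (log2 fold change -0.06), PER1 (0.03) and ZFP36 (-0.05) were close to 0, and FKBP5, with 689 to 819 CPM in mono-culture and 846 to 1034 CPM in co-culture, did not overlap but was not called.

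Glycolysis and hypoxia genes held 2 calls of 34 tested, both higher, against 0.375% of all genes called higher. SLC2A1, the glucose transporter GLUT1, rose 1.37-fold from 186, 161 and 151 CPM to between 209 and 249 CPM (edgeR adjusted p = 0.00943). HK1, hexokinase 1, rose 1.39-fold from 47.7, 52.0 and 61.0 CPM to between 64.3 and 92.2 CPM (edgeR adjusted p = 0.042), and kept its call in 5 of the 12 fits without a library. Of the 20 glycolytic enzymes and transporters tested, 15 had positive log2 fold changes, with a median of 0.24, and 7 of the 20 lay higher in co-culture without overlap, against 1.77% of all genes tested. Of these 20, 19 had a mean of at least 1 CPM, while the 1.77% covers genes of all levels. LDHA, lactate dehydrogenase A, lay between 804 and 838 CPM in mono-culture and between 918 and 1321 CPM in co-culture without being called. The 14 hypoxia targets and regulators had a median log2 fold change of -0.05 and 0 calls. In the TGF-β and BMP list 1 gene of 30 was called, against 0.788% of all genes. This was ID1, an inhibitor of helix-loop-helix factors and a target of BMP signals. It measured 75.8, 76.5 and 89.0 CPM in mono-culture and from 106 to 181 CPM in co-culture (1.66-fold, edgeR adjusted p = 0.00592), while ID3 lay between 3.31 and 4.23 CPM and between 1.58 and 4.87 CPM.

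AXL, a receptor tyrosine kinase that binds GAS6 and takes part in the uptake of dying cells (chr19:41219203-41261766, plus strand), measured 8.46, 9.15 and 10.7 CPM in mono-culture and from 2.03 to 5.14 CPM in co-culture, with a median of 3.47. No library overlapped, and AXL was 2.69-fold lower (log2 fold change -1.43 ± 0.21 SE, edgeR adjusted p = 0.00126). Its relative MERTK went the other way without being called, with 19.6 to 32.8 CPM in mono-culture and 23.6 to 60.9 CPM in co-culture. CD1D, which presents lipid antigens to natural killer T cells, measured 325, 355 and 312 CPM in mono-culture and from 176 to 242 CPM in co-culture, and fell by 0.62 on the log2 scale (edgeR adjusted p = 0.00112). CD1A, CD1B and CD1C stayed below 3 CPM. P2RY12, an ADP receptor of platelets and microglia, was 3.56-fold lower, from 1.62, 3.44 and 2.64 CPM to between 0.347 and 1.61 CPM. KIT, the stem cell factor receptor, was 2.29-fold lower, from 5.66, 5.22 and 3.64 CPM to between 1.16 and 2.99 CPM. CD72, a co-receptor of B cells, and FCMR, an Fc receptor for IgM, were also among the largest falls, with fitted log2 fold changes of -1.43 and -1.35.

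SPP1, the gene of the matrix cytokine osteopontin, measured 5.66, 10.1 and 9.53 CPM in mono-culture. In co-culture it lay between 2.54 and 5.54 CPM with a median of 2.84, and it was 2.67-fold lower (edgeR adjusted p = 0.00175). The margin was narrow, since the highest co-culture library (EGCG-treated senEC replicate 1) lay just below mono-culture replicate 1. THBS1 and SPP1 were the 2 called of 32 matrix genes tested, 1 in each direction, against 0.788% of all genes. The median log2 fold change of that list was 0.09. LIPG, the endothelial lipase, was 2.71-fold lower, from 8.33, 16.9 and 11.1 CPM to between 1.75 and 7.12 CPM. The protease inhibitor gene SERPINB13 and the tight junction gene TJP3 had log2 fold changes of -1.27 and -1.75, and the protocadherin gene PCDH17 of -1.65.

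PDK4, which blocks the entry of pyruvate into mitochondrial oxidation, measured 28.5, 32.5 and 21.8 CPM in mono-culture and from 3.86 to 16.3 CPM in co-culture, with a median of 12.5. It was 2.47-fold lower (edgeR adjusted p = 0.0127). DNASE2, the lysosomal DNA-degrading enzyme, measured 23.9, 29.1 and 25.6 CPM and from 7.95 to 18.6 CPM, and fell by 1.00 on the log2 scale (edgeR adjusted p = 0.00175). GPNMB, a glycoprotein of lysosomes and melanosomes, was 1.93-fold lower, from 9.01, 13.0 and 14.8 CPM to between 4.85 and 8.64 CPM. These were the 2 called of 39 lysosomal genes tested, against 0.788% of all genes, and the median of that list was -0.01. PLD4, an exonuclease of the endolysosome that was picked out after its values had been seen, measured 286, 312 and 267 CPM in mono-culture and from 145 to 236 CPM in co-culture (1.56-fold lower, edgeR adjusted p = 0.00773). DAPK1, a kinase linked to cell death, measured 56.3, 57.2 and 55.4 CPM in mono-culture and from 34.9 to 41.8 CPM in co-culture, with little scatter in either. GALM, a galactose mutarotase, and PLEKHH1 were 1.48-fold and 1.77-fold lower. CD1D, AXL, DNASE2, DAPK1, GALM and PLEKHH1 were called in all 12 fits that left out 1 library. The remaining falls of this size were MGAM2, PACSIN1, PLEKHA6, RASGRP3, TRIM31, SYT2, AHNAK2 and ST6GALNAC5, with log2 fold changes from -1.77 (MGAM2) to -1.09 (ST6GALNAC5). A further gene that met the rule is not described here.

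**Figure D3:**
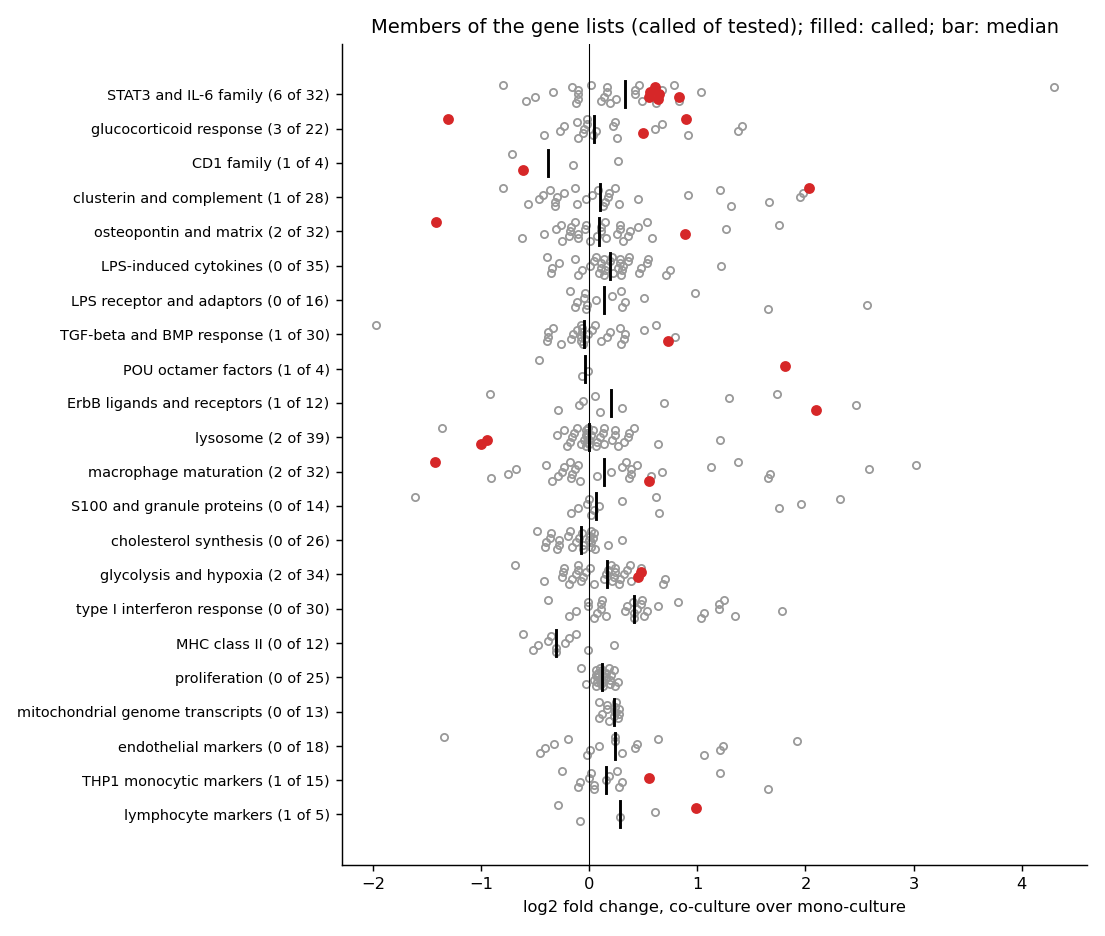
Log2 fold change of co-culture over mono-culture (horizontal axis) for each tested member of 22 gene lists; filled red points passed an adjusted p of 0.05 (edgeR), open points did not, and black bars are list medians. The STAT3 and IL-6 family list holds 6 called genes, and no other list holds more than 3. The lists were written with earlier results of these data known.

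Of 35 LPS-induced cytokine genes and feedback regulators tested, 0 were called, against 0.788% of all genes, so that this count does not set the list apart. Of the 35, 28 had positive log2 fold changes and the median was 0.20. An unadjusted p under 0.05 was found for 3 (IL10, CSF1 and NFKBIA), against 2691 of all 25873 genes. The 10 chemokine genes tested were all positive, with a median of 0.29. CSF1, a growth factor of monocytes, was the 1 gene of the list without overlap, with 4.17, 2.69 and 4.35 CPM in mono-culture and from 4.49 to 8.34 CPM in co-culture, and was called in 4 of 13 alternative fits. IL1B measured 131, 270 and 611 CPM in mono-culture and from 142 to 866 CPM in co-culture, with a median of 235. CXCL8 measured 280, 569 and 613 CPM and from 243 to 931 CPM. IL12B measured 1.18, 2.96 and 2.75 CPM and from 0.720 to 4.12 CPM. IL6 stayed at or below 0.778 CPM in every library. The spread within each kind of culture was thus larger than the difference between them for these 4 genes. IL23A, the gene of the p19 subunit of IL-23, measured 11.1, 23.6 and 32.8 CPM in mono-culture and from 7.62 to 29.1 CPM in co-culture, with a median of 15.6. The fitted log2 fold changes were 0.20 ± 0.50 SE for IL1B, 0.01 ± 0.33 for CXCL8 and -0.07 ± 0.40 for IL12B. They were 0.14 ± 0.70 for IL6 and -0.35 ± 0.34 for IL23A, with edgeR adjusted p from 0.793 to 0.997 over the 5 genes. These values pool the co-cultures, in which opposite changes can cancel. Over mono-culture, control ECs, senECs and EGCG-treated senECs gave 0.04, 0.33 and 0.20 for IL1B and 0.28, 0.05 and 0.07 for IL6. In that order, CXCL8 had -0.11, 0.16 and -0.03, IL12B -0.18, -0.15 and 0.11, and IL23A -0.32, -0.37 and -0.37. None was called, nor by an edgeR test among the 3 co-cultures (unadjusted p from 0.791 to 0.993). Exact permutation tests of log2 CPM over the 9 and 3 libraries (two-sided) gave p = 0.791 for IL1B, 1.0 for IL6, 0.882 for CXCL8, 0.764 for IL12B and 0.455 for IL23A, each 1.0 after adjustment over the 5, where 0.00909 is the smallest p possible. None of these tests had a term for the replicate number. With such a term, IL23A was called lower when numbers 3 and 5 were joined, but not with the numbers as labelled. IL10, which signals through STAT3, measured 1.12, 2.58 and 4.35 CPM in mono-culture and from 1.82 to 12.2 CPM in co-culture, which overlapped, and was not called (edgeR adjusted p = 0.365).

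**Figure D4:**
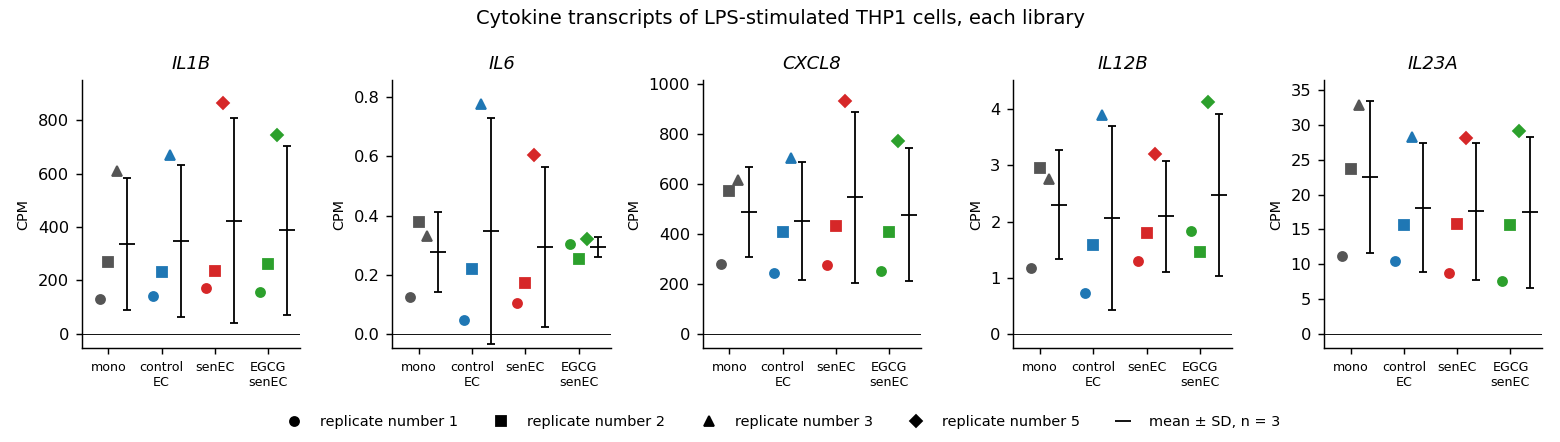
CPM (vertical axis) of the 5 cytokine genes that the study followed by qPCR, in each of the 12 libraries by culture; symbols give the replicate number and the black bars the mean ± SD of 3 libraries. For all 5 genes the co-culture libraries overlap the mono-culture libraries, which range from 131 to 611 CPM for IL1B.

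Genes of LPS recognition and of monocyte maturation were examined next, beside a share of 0.788% called over all genes tested. CD14, the LPS co-receptor, measured 5.91, 9.90 and 11.0 CPM in mono-culture and from 12.4 to 65.7 CPM in co-culture, with a median of 26.2. The libraries did not overlap and the fitted log2 fold change of CD14 was 1.65 ± 0.41 SE (3.14-fold), but the gene did not pass (edgeR adjusted p = 0.0696). DESeq2 called it with an adjusted p of 0.0319, as did 9 of 13 alternative fits in all. TLR4 lay between 27.3 and 33.4 CPM and between 21.1 and 55.3 CPM, and 0 of the 16 genes in this list were called. In the list of macrophage maturation, FCGR1A was called higher and AXL lower of 32 tested. CD163 lay between 5.28 and 21.9 CPM in mono-culture and between 8.97 and 91.1 CPM in co-culture and was not called. S100A9, an alarmin of monocytes and neutrophils, measured 71.7, 99.0 and 206 CPM in mono-culture and from 143 to 1423 CPM in co-culture, with a fitted log2 fold change of 1.96 ± 0.57 SE and an edgeR adjusted p of 0.153.

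A list of type I interferon genes held 0 calls of 30 tested, against 0.788% of all genes. Of the 30, 25 had positive log2 fold changes, the median was 0.42, and 10 had an unadjusted p under 0.05. MX1 measured 4.66, 2.96 and 5.23 CPM in mono-culture and from 5.52 to 28.1 CPM in co-culture, and OAS1 2.11, 2.53 and 1.71 CPM and from 1.89 to 9.59 CPM. PARP9 and LAP3, described above, can be induced by interferons as well but were not members of this list. They were set beside it after their values had been seen. The genes called lower were not searched for interferon-induced genes, so this pair gives no direction for such genes. MHC class II genes (12 tested, median -0.31), cholesterol synthesis genes (26 tested, median -0.08), proliferation genes (25 tested, median 0.12) and transcripts of the mitochondrial genome (13 tested, median 0.23) held 0 calls each. The directions were uniform in some of them, with 11 of 12 MHC class II genes negative, 23 of 25 proliferation genes positive and 13 of 13 mitochondrial transcripts positive. Over all lists other than those of cell markers, 21 members were called, beside 204 of the 25873 genes tested (0.788%).

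The response was next followed in each kind of co-culture. All 97 higher genes had a positive and all 107 lower genes a negative log2 fold change against mono-culture in each of the 3 kinds of co-culture. These 3 comparisons share the mono-culture libraries, and the genes were chosen on the pooled value. For 95 of the 97 and 98 of the 107 the libraries did not overlap, which fixes the direction in all 3. The median log2 fold change of the higher genes was 0.62 (control ECs), 0.67 (senECs) and 0.71 (EGCG-treated senECs), and that of the lower genes -0.68, -0.69 and -0.66. Called alone at 3 libraries against 3, in a model of the 4 groups, were 22, 45 and 31 of the higher and 15, 28 and 21 of the lower genes. POU2F2 had log2 fold changes of 1.76, 1.77 and 1.91 in the same order, STAT3 of 0.67, 0.63 and 0.62, and CLU of 1.85, 2.20 and 2.02. DNASE2 had -1.23, -0.85 and -0.94.

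A test of any difference among the 3 co-cultures called 0 of 25873 genes (0%) in the same edgeR model, with a smallest adjusted p of 0.988, and DESeq2's likelihood ratio test called 0 as well. The count depended on the model: with every gene that had a count kept, 106 were called, and fits with a term for the replicate number called genes as well. At an unadjusted p under 0.05 there were 968 genes (3.74%) with edgeR and 854 with DESeq2. Of the 204 genes of the co-culture response, 16 (7.84%) had an unadjusted p under 0.05 in this test. NKG7 was among them, with log2 fold changes of 0.66 (control ECs), 1.24 (senECs) and 1.02 (EGCG-treated senECs), and so was AQP3, with 1.34, 2.05 and 1.72. Neither was called after adjustment. A p that misses the threshold does not show that the co-cultures acted alike.

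**Figure D5:**
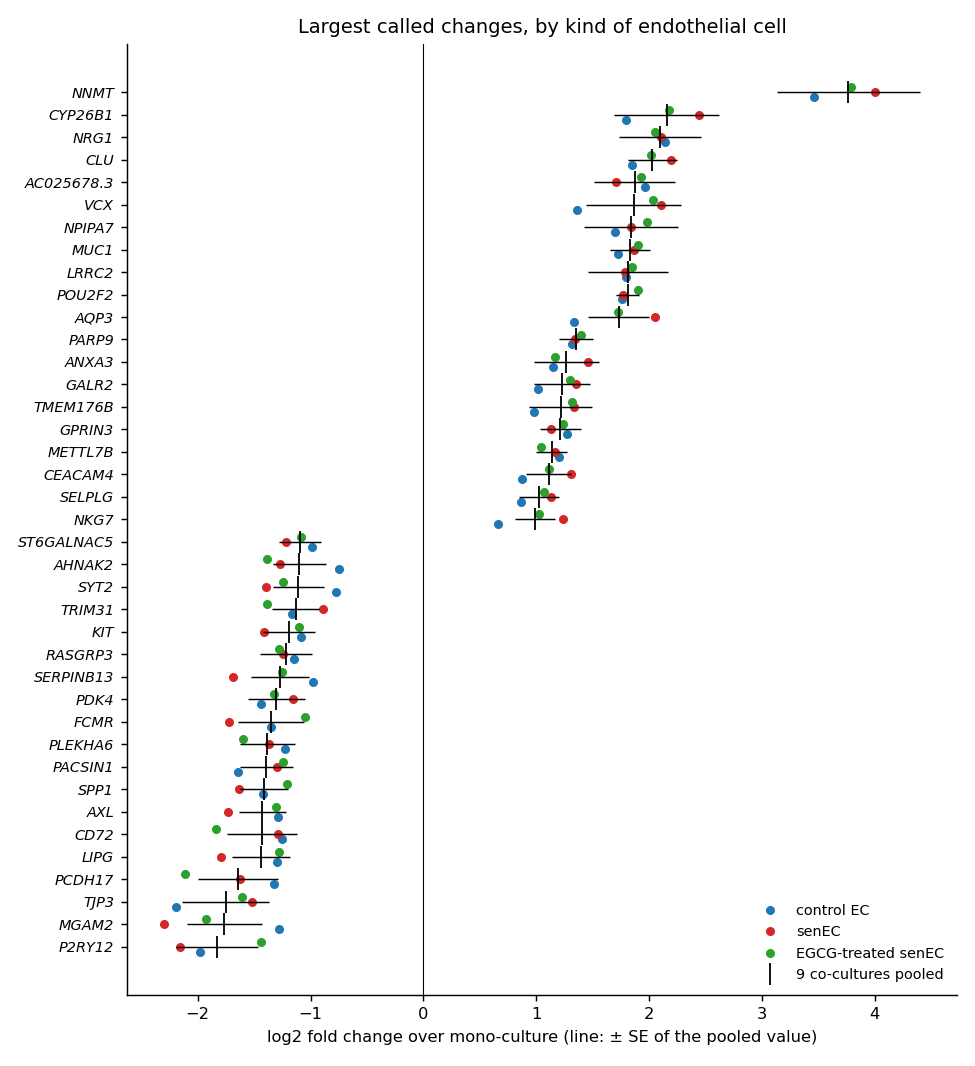
Log2 fold change over mono-culture (horizontal axis) of the 20 called genes with the largest rise and 19 with the largest fall, shown for each co-culture: control ECs (blue), senECs (red), EGCG-treated senECs (green), 3 libraries each; black ticks and lines are the value ± SE of the 9 co-cultures pooled. In all 39 genes the 3 values lie on the same side of 0. The choice of the genes fixed this, since their co-culture libraries did not overlap those of mono-culture.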

How the data were processed

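The RNA of THP1 cells was sequenced in 12 libraries by the study, and the authors deposited raw counts of reads per gene, without normalization; per the submitters' processing notes, reads were aligned with HISAT2 to hg38. The counting program, its annotation and its use of strand are not given in the sources used here, so that antisense and overlapping genes cannot be told apart. Row symbols match GENCODE 29 (57169 of 57169), from which coordinates were taken, and 4 further columns match no described sample and were not used. Libraries were grouped by their labels. Whether replicates came from separate cultures is not stated, so p-values measure the spread between libraries, which may be technical. Genes that summed to 10 counts or more were tested with edgeR 4.0.16 in R 4.3.3 (quasi-likelihood, TMM, 9 against 3 libraries, Benjamini-Hochberg over all genes). CPM use TMM library sizes, with factors from 0.912 to 1.04, and the SE is the log2 fold change over the square root of F. Tested on simulated data with 9 against 3 libraries and 25006 genes, edgeR found 79 of 100 genes changed 2-fold and 58 of 100 changed 1.5-fold, with 6 false calls. DESeq2 found 83 and 70, with 23 false calls. The changed genes averaged 1 CPM or more, and the simulated libraries shared no replicate effect. These figures thus need not hold for the real libraries.

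Alternatives were DESeq2 1.42.0 and its size factors, other filters, a model of the 4 groups, a term for the replicate number, and co-cultures or single libraries left out. Named were, per direction, the 20 called genes of largest change that averaged 1 CPM or more and did not overlap, the 5 with the smallest p, up to 4 called genes (or 2 others) per list, and the 5 qPCR genes. The 23 lists were written by hand. The genes and lists were chosen with earlier results of these data known. The letters of the STAT element were loosened after a first look at the data. Promoters came from RefSeq (GRCh38.p14), with 157 of the 204 called genes matched.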

Additional observations from a re-analysis of the deposited data

Results flagged for a closer look

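Among the 9 co-culture libraries, the highest or lowest log2 CPM of each of 82 genes was set against the nearest other library. The gap was taken as a share of the whole range on that scale, with Dixon's limit for 9 values. Chance alone exceeds this limit in about 1 of 20 groups, and 4 of the 82 genes did, which is near that rate. SPP1 was highest in EGCG-treated senEC replicate 1, at 5.54 CPM (share 0.555). The neutrophil elastase gene ELANE was highest in senEC replicate 5, at 1402 CPM (share 0.537). MX1 was highest in EGCG-treated senEC replicate 5, at 28.1 CPM (share 0.623), and the endothelial marker EGFL7 was highest in senEC replicate 5, at 30.4 CPM (share 0.71).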

How the results depend on the processing

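With 3 mono-culture libraries the number of calls depended on single libraries and on the model. Leaving out 1 library gave from 21 (without mono-culture replicate 2) to 109 higher genes, 16 to 119 lower genes, 9 to 23 called list members, 945 to 1885 genes without overlap (883 with all libraries) and 0 to 3 genes differing among the co-cultures (3 without control EC replicate 3, 0 in the others). Without all EGCG-treated senEC co-cultures 51 genes were higher and 59 lower, with 1388 not overlapping, and without all control EC co-cultures 1864 did not overlap. DESeq2 called 289 higher and 213 lower genes and 35 list members, and 201 of the 204 genes were among its calls. Same-numbered libraries of different groups deviated together with correlations from 0.36 to 0.472 for number 1, 0.035 to 0.243 for number 2, 0.338 for number 3 and 0.287 for number 5, and 9 of 12 libraries had their best match in another group under their own number. Libraries numbered 3 also deviated together with those numbered 5, with correlations from 0.271 to 0.437. Control EC replicate 3 and senEC replicate 5 were each other's best match (0.437). EGCG-treated senEC replicate 5 matched control EC replicate 3 best (0.369). Since not every pair exceeded 0.1 and no label says that a number marks a shared batch, the pairing was not used for the reported values. With a replicate block, 250 genes were higher and 233 lower, with 51 list members and 130 genes differing among the co-cultures. With the replicate block joining numbers 3 and 5 the counts were 395, 336, 81 and 201, and with the 4-group model as well 643, 600 and 119. The test among the co-cultures gave 106 genes when every gene with a count was kept. Of the cytokine genes, none of which was called in the reported model, several changed sign. Without the co-cultures numbered 5 the values were -0.34 for the log2 fold change of IL1B, -0.072 for the log2 fold change of IL6 and -0.33 for the log2 fold change of CXCL8. CXCL8 also turned to -0.0073 with at least 10 counts in every library, -0.17 with a replicate block, -0.085 with it joined, -0.088 with it joined in the 4-group model and -0.073 without all senEC co-cultures. Leaving out 1 library gave from -0.19 to 0.94 for IL1B, -0.19 to 0.41 for IL6, -0.27 to 0.21 for CXCL8, -0.38 to 0.15 for the log2 fold change of IL12B and -0.67 to 0.019 for the log2 fold change of IL23A. IL23A passed with the joined block (-0.37, edgeR adjusted p = 0.0412) and with the joined block in the 4-group model (-0.37, 0.0185), and had adjusted p from 0.0509 to 0.996 in the others. The cause was not tested. The size factors of DESeq2 and the other filters changed the main counts by less than 1.5 times. Of the 204 called genes, 95 higher and 106 lower had a mean of at least 1 CPM.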

Other observations

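Some further called genes came in known pairs. They were picked out after their values had been seen, and their functions are background. GAL, the peptide galanin, measured 32.1, 29.2 and 24.5 CPM in mono-culture and from 32.7 to 49.0 CPM in co-culture (1.4-fold, edgeR adjusted p = 0.0438), beside its receptor gene GALR2. The call of GAL was made in 3 of the 12 fits that left out 1 library. PVR and NECTIN2, nectin-family proteins recognised by receptors of T and natural killer cells, rose 1.4-fold and 1.39-fold, PVR from 68.0, 67.3 and 75.8 CPM to between 85.4 and 108 CPM and NECTIN2 from 32.7, 32.3 and 36.7 CPM to between 39.2 and 58.6 CPM. SBNO2, a co-repressor known to be induced by STAT3, rose 1.47-fold from 141, 119 and 130 CPM to between 169 and 213 CPM and was called in all 12 fits that left out 1 library. IL4R, a cytokine receptor, rose 1.48-fold from 37.4, 39.5 and 42.1 CPM to between 47.3 and 76.2 CPM.

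On the lower side, NCF1, a subunit of the phagocyte NADPH oxidase, measured 190, 226 and 216 CPM in mono-culture and from 131 to 185 CPM in co-culture (1.39-fold lower, edgeR adjusted p = 0.0153). Its near-identical copies NCF1B and NCF1C were called lower too, and reads cannot be assigned among the 3 with certainty. SORL1, a sorting receptor, was 1.5-fold lower, from 106, 112 and 113 CPM to between 58.4 and 88.6 CPM, and SEMA3C, a secreted semaphorin, 1.92-fold lower, from 24.1, 30.3 and 27.7 CPM to between 11.1 and 19.6 CPM. Both were called in all 12 fits that left out 1 library.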
